A study of Mus musculus with 4 samples.

Results

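The levels of 10 genes of mouse chromosome 9 were followed over 4 aorta arrays: Nxpe4, Nnmt, Parp3, Fez1, Clmp, Tipin, Nicn1, Tmod3, Plscr2 and Trappc4. They were chosen because the top probe set of each, the one with the highest mean, differed at least 2-fold between Ath29 and B6 mice in the same direction on chow and on Western diet. They account for 10 of 11715 genes compared and for 10 of 646 compared genes on chromosome 9, and are measured by 19 of the 45101 probe sets, which are groups of short probes for 1 transcript. Since strain differences chose the genes, those differences are given as a description without a test.

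Controls, called B6, were C57BL/6 apoE-/- mice without apolipoprotein E, whose disease label is atherosclerosis. The Ath29 mice are congenic, meaning that a donor stretch of another strain was bred onto the C57BL/6 background. Their disease label is resistance to atherosclerosis and, by sample title, they carry the stretch on chromosome 9. The labels give apoE-/- for the controls only, and name neither the donor strain nor the ends of the stretch. Mice were weaned at 3 weeks of age, stayed on chow or were moved to Western diet at 4 weeks, and were kept so for 2 weeks. Each of the 4 groups (each strain on each diet) has 1 array, so the differences below lack replicates and no p-value is given. The labels do not give the number of mice behind an array.

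A congenic strain tests a locus by holding the rest of the genome alike, and a gene inside the donor stretch can differ in its transcript level because it carries donor alleles. The 10 genes have varied roles, though Parp3 and Nnmt are both tied to NAD use. Parp3 attaches ADP-ribose at DNA breaks and uses NAD as donor, Nnmt methylates nicotinamide, a product of NAD use, and Tipin protects replication forks with its partner Timeless. Tmod3 caps the slow-growing ends of actin filaments, Nicn1 belongs to the complex that adds glutamate chains to tubulin, and Fez1 links cargo to kinesin-1. Trappc4 is a core subunit of the TRAPP complexes of vesicle transport, Plscr2 is one of the phospholipid scramblase family, Clmp is an adhesion protein of epithelial junctions, and Nxpe4 belongs to the neurexophilin and PC-esterase domain family.

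The promoters of Nxpe4, Parp3 and Nicn1 are shown because these are the members with a single window in the RefSeq table. On their top probe sets all 3 read lower in Ath29 mice. RefSeq windows (build GRCm38.p6, 250 bases before to 50 after the start) matched 4 of the 10 members, the fourth being Fez1 with 3 windows. Capitals mark CCAAT or its reverse complement ATTGG, the core of the CCAAT box. The Nxpe4 window is chr9:48361791-48362090 on the plus strand, the Parp3 window is chr9:106476900-106477199 on the minus strand, and the Nicn1 window is chr9:108290193-108290492 on the plus strand.
Nxpe4: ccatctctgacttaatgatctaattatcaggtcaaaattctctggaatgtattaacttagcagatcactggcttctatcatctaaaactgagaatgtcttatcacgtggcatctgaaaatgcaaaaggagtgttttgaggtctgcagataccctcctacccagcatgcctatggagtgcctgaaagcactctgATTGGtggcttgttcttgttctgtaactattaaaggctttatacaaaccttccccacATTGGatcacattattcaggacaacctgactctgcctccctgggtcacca
Parp3: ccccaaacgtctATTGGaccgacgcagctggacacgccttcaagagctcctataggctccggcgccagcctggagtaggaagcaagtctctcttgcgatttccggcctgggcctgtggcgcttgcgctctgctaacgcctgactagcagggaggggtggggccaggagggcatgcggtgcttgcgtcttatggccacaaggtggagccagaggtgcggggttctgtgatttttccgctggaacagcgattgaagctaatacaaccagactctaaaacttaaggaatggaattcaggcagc
Nicn1: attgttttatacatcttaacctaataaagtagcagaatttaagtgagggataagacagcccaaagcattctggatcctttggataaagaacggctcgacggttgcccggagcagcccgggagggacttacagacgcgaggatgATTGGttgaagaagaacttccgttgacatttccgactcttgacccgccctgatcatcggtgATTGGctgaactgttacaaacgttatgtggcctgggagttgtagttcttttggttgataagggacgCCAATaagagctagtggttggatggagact
These windows held 2 CCAAT-box matches in Nxpe4, 1 in Parp3 and 3 in Nicn1, against at least 1 match in 37.4% of all 32851 windows of the same length. CG dinucleotides numbered 1 in Nxpe4, 16 in Parp3 and 13 in Nicn1, where the median window has 7. The letters GGGCGG or CCGCCC, the core of a GC box, occurred once in Nicn1 and in neither of the others, and in 35.7% of all windows. The letters TATAAA or TTTATA occurred once in Nxpe4 and once in Nicn1, and in 13.6% of all windows. The 3 promoters thus share the CCAAT letters, which many windows hold, and differ in CG content. The windows come from the reference build, and the donor sequence was not read. No link between these letters and the strain differences was tested. The 3 Fez1 windows held 1, 1 and 0 CCAAT-box matches.

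Median intensities of the 4 arrays lay between 27.9 and 28.8, and intensities from 0.57 to 13421. The arrays carried strong smooth muscle and fibroblast signal. All 5 smooth muscle markers and all 5 fibroblast markers passed the filter on low values (a mean above the median probe set, 27.5). Their summed intensities were 19228 to 22756 and 15271 to 17914. For endothelium, 4 of 5 markers passed, with sums of 1896 to 2278. Macrophage markers summed to 3833 and 7893 in B6 mice and to 4569 and 7450 in Ath29 mice (chow first). The extract protocol names liver where the source label says aorta. Of the hepatocyte markers 3 of 5 passed, with summed intensities of 2601 to 5041, nearly all of it from Cyp2e1 (2490 to 4891), while albumin (Alb) read 33.0 to 64.6. Heart muscle markers summed to 8174 in B6 Western and to 233 to 472 in the other arrays. Brown fat markers summed to 4955 on chow and 11602 on Western diet in B6 mice, against 8668 and 6392 in Ath29 mice. Fewer cells of a type and less RNA per cell cannot be told apart in whole tissue. The Apoe probe set read 7.03 to 25.2 on all arrays, below the filter, and whether it lies in the deleted part is not known here.

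On the top probe sets, 7 members read lower in Ath29 mice on both diets (Nxpe4, Nnmt, Parp3, Fez1, Clmp, Tipin and Nicn1) and 3 read higher (Tmod3, Plscr2 and Trappc4). Among all genes compared, 30 (0.256%) met the 2-fold rule, 0.179% lower and 0.0768% higher, and among those on chromosome 9, 13 (2.01%). Of these 13 the members leave out Tpbg, Sln and C920006O11Rik. In each of the 10 genes the B6 arrays and the Ath29 arrays did not overlap, as in 33.0% of all genes compared. The rule used these same arrays and makes such separation likely, so nothing is read from it. Intensities below are as deposited, chow before Western diet, while differences are log2 values after the arrays were shifted to 1 median.

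**Figure D1:**
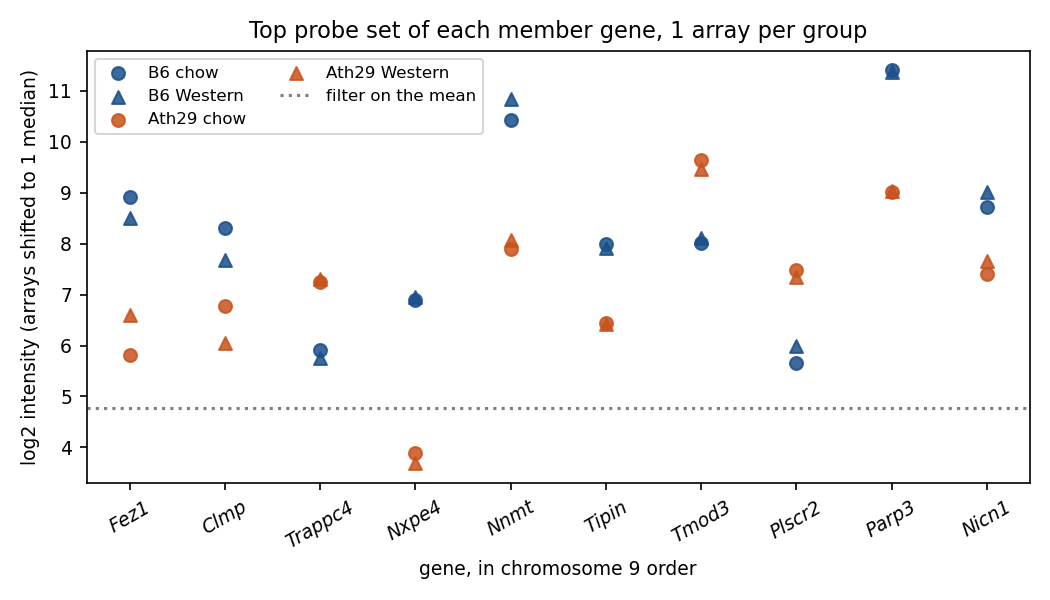
Log2 intensity of the top probe set of each of the 10 genes (vertical axis) on each of the 4 arrays; blue marks B6, orange Ath29, circles chow and triangles Western diet, with no error bars since each group has 1 array. In every gene both arrays of a strain lie on the same side of both arrays of the other, which the choice of genes makes likely. The Ath29 values of Nxpe4 lie under the filter line.

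Among the enzymes of NAD and nicotinamide use, Parp3 (1451969_s_at) read 2655 on chow and 2683 on Western diet in B6 mice, and 520.1 and 526 on these diets in Ath29 mice. The arrays of a strain lay close together, and this probe set read 5.26-fold (chow) and 5.07-fold (Western diet) lower in Ath29 mice. The other Parp3 probe sets, described below, differed by -0.21 and 0.21, and by -0.09 and -0.18. Nnmt (1432517_a_at) read 1353 and 1849 on the B6 arrays, against 240.1 and 269.8 on the Ath29 arrays. Nnmt was thus 5.81-fold and 6.81-fold lower in Ath29 mice. The 3 of 5 white fat markers that passed the filter summed to 13185 and 17024 on the B6 arrays and to 15346 and 14072 on the Ath29 arrays (chow first). Their order differed by gene. Retn, a fat cell hormone, differed between strains by -0.06 on chow and by -0.66 on Western diet, while Adipoq and Fabp4 were lowest in B6 chow. The part of fat tissue in the Nnmt difference was not tested.

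The other members that read lower have more varied roles. Nxpe4 (1456111_at) read 117 and 124 in B6 mice, against 14.95 and 12.9 with the Ath29 stretch. Both Ath29 values lie below the filter value of 27.5, so the log2 differences of -3.01 and -3.26 are not exact. Fez1 (1454674_at) read 473 on chow and 368 on Western diet in B6 mice, against 56.7 and 97.35 in Ath29 mice. Its strain differences were -3.10 and -1.91, and this gap of 1.19 is the widest among the 10 genes. The 2 nerve markers that passed the filter, Mbp and Tubb3, summed to 262 and 359 in B6 mice against 274 and 203 in Ath29 mice (chow first), most of it from Mbp, and their part in the Fez1 difference was not tested. Of the other 3 nerve markers 1 lay below the filter and 2 were not on the array by name.

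Tipin (1426612_at) read 249 and 242 in B6 mice against 88.2 and 86.4 in Ath29 mice, with log2 differences of -1.54 and -1.48. Clmp (1448251_at) read 310.2 and 208 on the B6 arrays, against 111 and 66.1 with the Ath29 stretch. Its nearest arrays of different strains, B6 Western and Ath29 chow, were 0.90 log2 units apart, the narrowest separation of the 7 lower genes. Nicn1 (1449377_at) read 414 and 518 on the B6 arrays and 171 and 204 on the Ath29 arrays, with differences of -1.32 and -1.34. Tipin and Nicn1 differed between the diets' estimates by 0.06 and 0.02 log2 units.

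The 3 members whose top probe sets read higher in Ath29 mice serve the cytoskeleton, the membrane and vesicle transport. Tmod3 (1438556_a_at) read 254 and 278 in B6 mice against 804 and 706 in Ath29 mice, log2 differences of 1.62 and 1.35. Plscr2 (1448961_at) read 49.55 and 64.0 in B6 mice against 181 and 163 in Ath29 mice, differences of 1.82 and 1.35. Trappc4 (1415674_a_at) read 58.9 and 54.3 in B6 mice against 153 and 159 in Ath29 mice, differences of 1.34 and 1.56. In all 3 genes the lowest Ath29 array exceeded the highest B6 array by 1.34 log2 units or more.

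The strain difference on chow and that on Western diet rest on different arrays. Over the 10 genes they were a median of 0.23 log2 units apart, against 0.37 over all genes compared. The rule required agreement in direction, so this closeness is described only. The choice left genes just inside and just outside 2-fold. Just inside on chromosome 9 were Tpbg (1.14 and 1.27 on chow and Western diet), the heart and muscle gene Sln (-1.23 and -6.13) and the member Nicn1. Just outside were Acpp (-0.96 and -1.01), Dusp7 (1.08 and 0.93) and Rsl24d1 (-2.48 and -0.90).

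By the distance between mean-centred log2 values over the 4 arrays, the genes nearest to Parp3 among all 11715 were Nnmt (0.43), Fez1 (0.62) and Nxpe4 (0.78). Those nearest to Nnmt were Parp3 (0.43), Nxpe4 (0.61) and Fez1 (0.73). Nearest to Tmod3 were Plscr2 (0.20), Trappc4 (0.25) and Nnat of chromosome 2 (0.31). So 8 of these 9 places were taken by members, which were chosen on the same values.

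The other probe sets of the members mostly differed less by strain than the top ones. The members were chosen on an extreme top probe set, so this is described only. Of the members, 5 had 1 probe set (Fez1, Nxpe4, Nnmt, Tipin and Plscr2) and the other 5 had 9 probe sets besides the top one. All 9 passed the filter, and 0 of the 9 differed 2-fold by strain on both diets, where 0.188% of all such second probe sets did. At that share 0 of 9 is near the background. In 5 of the 9 the strains did not overlap, against 33.7% of all probe sets that passed. By mean strain difference 5 of the 9 had the sign of the top probe set and 4 the opposite sign. The 5 include the Parp3 set 1426210_x_at, whose mean was -0.00011 (-0.21 on chow and 0.21 on Western diet), so its sign carries no weight. They also include the Clmp set 1448250_at and the Tmod3 set 1455708_at, whose sign differed between the diets.

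**Figure D2:**
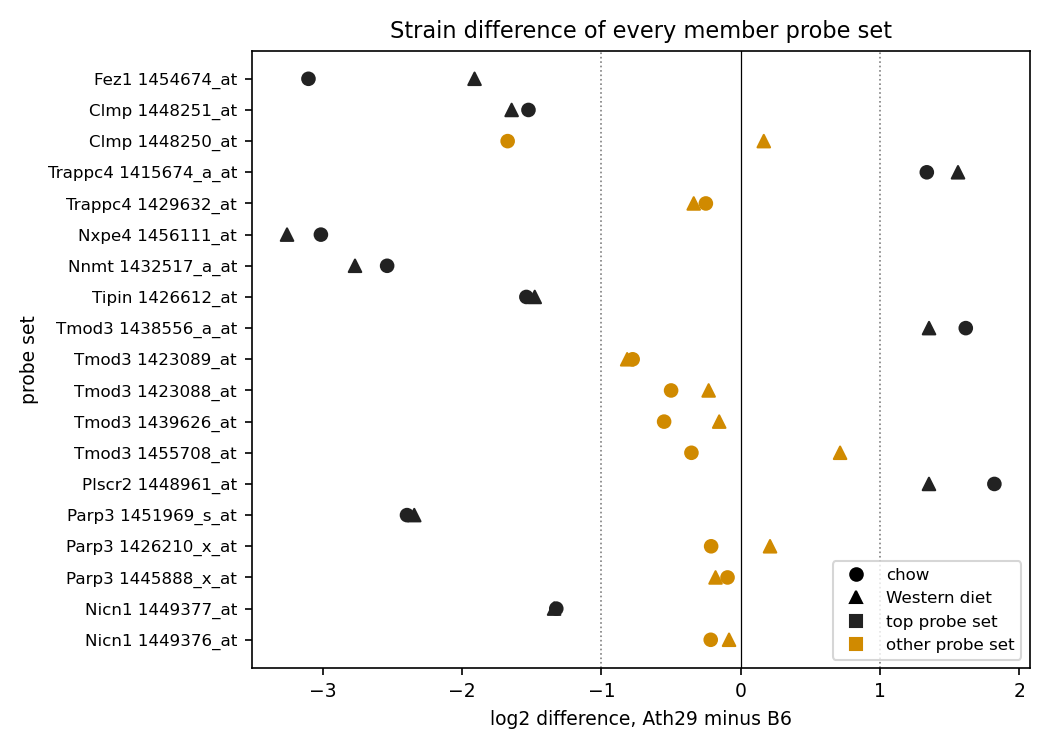
Log2 difference between Ath29 and B6 mice (horizontal axis) for each of the 19 probe sets, circles for chow and triangles for Western diet; black marks the top probe set of a gene and orange the others. Dotted lines mark 2-fold. The 10 black pairs lie outside the dotted lines, while 1 orange point, Clmp on chow, does.

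For Parp3, the second probe set (1426210_x_at) read 763 on chow and 741 on Western diet in B6 mice, against 679 and 854 in Ath29 mice. It overlapped between strains, with log2 differences of -0.21 and 0.21, although the platform annotation gives it and the top probe set the same source record. A further Parp3 probe set (1445888_x_at) read 258, 284, 249.55 and 249 in the same order. All 3 Parp3 probe sets carry the suffix _s or _x, which marks probes that can bind several transcripts.

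For Tmod3, 4 probe sets besides the top one were measured. The set 1423089_at read 221 and 277 on the B6 arrays and 133 and 157 on the Ath29 arrays, a strain difference of -0.77 and -0.81, opposite to the top probe set. A partner from the same source record, 1423088_at, read 199 and 199.8 against 145 and 169.5. The set 1439626_at read 107 and 95.8 against 75.6 and 85.7, again lower in Ath29 mice. The last, 1455708_at, read 50.9 and 28.2 in B6 mice against 41.0 and 46.1 in Ath29 mice (chow first), so its strains overlapped. In sum 3 of the 4 therefore read lower in Ath29 mice on both diets where the top probe set read higher.

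For Trappc4, the second probe set (1429632_at) lay near the filter, at 29.2 and 40.6 on the B6 arrays and 25.3 and 32.0 on the Ath29 arrays. Its strain difference was -0.25 and -0.34, opposite to that of the top probe set. For Nicn1, the second probe set (1449376_at) read 203 on both B6 arrays and 179.9 and 191 on the Ath29 arrays, -0.21 and -0.08. For Clmp, the second probe set (1448250_at) read 269.9 on chow and 74.3 on Western diet in B6 mice, against 87.2 and 82.9 in Ath29 mice. The B6 chow array stood alone there, with a strain difference of -1.67 against 0.17 on the other diet. In Nicn1 and Clmp too, both probe sets come from the same source record.

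Disagreement of this size between probe sets of a gene was measured over all genes. Of the 5 members with several probe sets, 4 had mean strain differences at least 1 log2 unit apart (Parp3 2.37, Tmod3 2.28, Trappc4 1.74 and Nicn1 1.18), and Clmp 0.83. The members were chosen on an extreme top probe set, so nothing is read from this count. Among the other chromosome 9 genes with several probe sets, 19 of 273 (6.96%) were that far apart. Among these 19 was Tpbg, whose top probe set also met the 2-fold rule. On other chromosomes 86 of 4376 genes (1.97%) were that far apart. For the mean diet difference of the same probe sets the shares were 1.47% among these chromosome 9 genes and 2.06% on other chromosomes. By this diet difference, a mean over both strains, the sets were 0.62 log2 units apart in Tmod3, 0.44 in Trappc4, 0.24 in Nicn1 and 0.13 in Parp3. Within B6 mice alone they lay further apart in some members. There the Clmp sets differed by diet by -0.62 and -1.90, and those of Tmod3 ran from -0.89 to 0.28. Probe-level values were not analysed here, and the cause of the disagreement was not tested.

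The rule did not name diet differences, but it used the same 4 arrays they are made from. By diet, the members differed about as much as genes in general. Their median absolute difference between Western diet and chow was 0.22 in B6 and 0.18 in Ath29 mice, against 0.25 and 0.20 over all genes compared. Of the 10 top probe sets, 0 differed 2-fold between Western diet and chow in B6 mice and 0 in Ath29 mice, against 5.28% and 2.18% of all genes compared. At such shares 0 of 10 is near the background, and no test was run on these counts. The median signed difference, Western minus chow, was 0.01 in B6 and 0.0030 in Ath29 mice, with ranges of -0.62 to 0.41 and -0.74 to 0.79. The medians over all genes were -0.06 and 0.04. In each strain 5 of the 10 were above 0 and 5 below, and 4 of the 10 had the same sign in both.

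Clmp was lower on Western diet in both strains, by -0.62 in B6 and -0.74 in Ath29 mice on its top probe set. Nicn1 was 0.28 and 0.27 higher, and Nnmt 0.41 and 0.18 higher. Fez1 differed by -0.40 in B6 and by 0.79 in Ath29 mice, so its arrays went opposite ways. Parp3 differed by -0.03 and 0.03 and Tipin by -0.08 and -0.02, the smallest pairs. Among the 9 other probe sets the Clmp set 1448250_at alone passed 2-fold, at -1.90 in B6 mice, where 5.06% of all probe sets that passed the filter did. Diet and strain differences are made from the same 4 arrays.

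**Figure D3:**
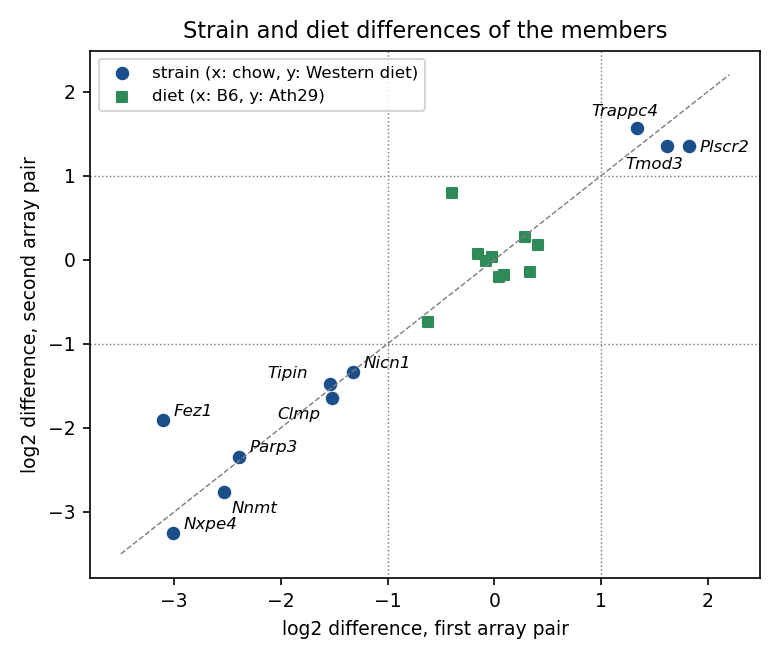
Differences of the top probe sets in log2 units: blue circles set the strain difference on chow (horizontal) against that on Western diet (vertical), and green squares the diet difference in B6 (horizontal) against that in Ath29 mice (vertical). The dashed line marks equal values and dotted lines 2-fold. Strain values lie outside 2-fold on both axes, as the choice of genes requires, while all 10 diet values lie between -0.74 and 0.79.

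In the gene order of chromosome 9, the members ran from place 119 (Fez1) to place 514 (Nicn1) of 646 measured genes. Clmp stood at 132, Trappc4 at 157, Nxpe4 at 187, Nnmt at 191, Tipin at 298, Tmod3 at 366, Plscr2 at 421 and Parp3 at 485. Genes that read lower and genes that read higher in Ath29 mice were interspersed along the order. With the order cut into 10 stretches of up to 65 genes, 4 members lay between Gramd1b and Plet1os and 2 between Ephb1 and Ccdc71. The stretches from Alkbh8 to Yipf2, from Plet1 to Clk3 and from Lamb2 to the last gene held 0 members.

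**Figure D4:**
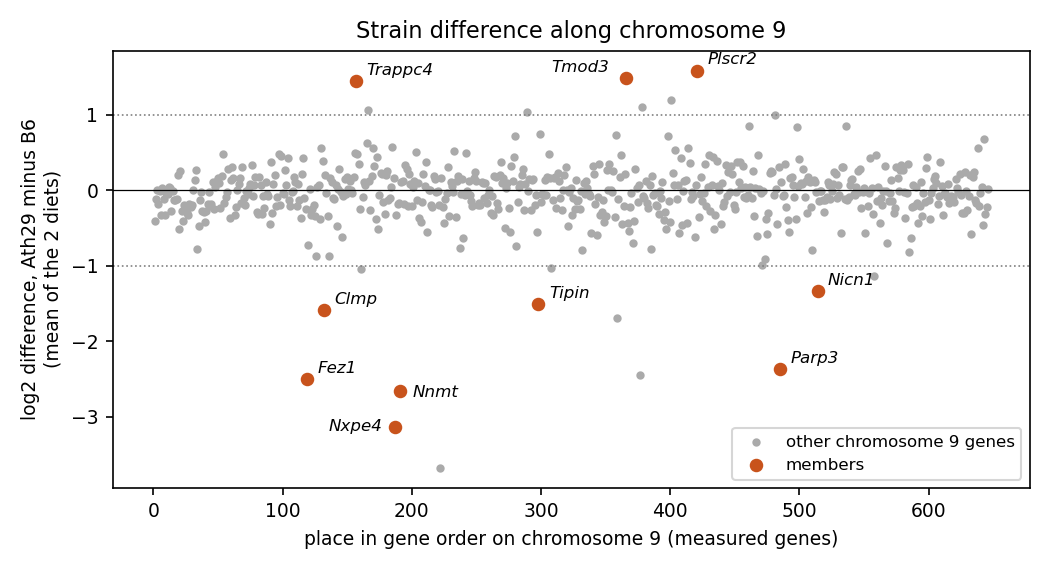
Mean strain difference over both diets in log2 units (vertical axis) for each of 646 chromosome 9 genes by place in gene order (horizontal axis), members in orange. Members are spread from place 119 to 514, and most genes between them lie inside the dotted 2-fold lines.

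The genes next to the members had strain differences about as large as genes in general. Of the 39 distinct genes within 2 places of a member, 0 differed 2-fold on both diets, near the background of 0.256% of all genes, and 1, Dis3l beside Tipin, passed 1.5-fold, with 0.75 on both. On chow or Western diet alone, 2 genes reached 2-fold, Gramd1b on chow (1.29) and Zic1, which was lower on Western diet, against 4.11% and 2.88% of all genes. The median absolute strain difference of the 39 was 0.25 on chow and 0.23 on Western diet, against 0.26 and 0.23 over all genes. Rexo2 and Rbm7, which lie between Nxpe4 and Nnmt, differed by -0.36 and -0.29, and by -0.20 and -0.16. Gm5617, also between them, differed by 0.40 and -0.74. Plscr1 and Plscr4, the scramblase genes on either side of Plscr2, differed by 0.10 and 0.04, and by -0.63 and -0.08. Tmod2, the neighbour and relative of Tmod3, differed by -0.81 and -0.05.

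Genes that work with the members were read from 11 lists of 114 genes, of which 86 were measured, 20 fell short of the filter and 8 were not found among the named probe sets. Of the 86, 0 differed 2-fold by strain in the same direction on both diets, where 0.256% of all genes did, so a count of 0 is near the background. Over all genes the strain difference had medians of -0.08 (chow) and 0.0047 (Western diet).

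Around Nnmt and Parp3, the 16 measured genes of NAD and nicotinamide metabolism had medians of 0.0047 on chow and -0.14 on Western diet. Nampt, which makes the precursor of NAD from nicotinamide, differed by 0.20 and -0.78, and Aox1, an oxidase that clears methylated nicotinamide, by 0.45 and -0.54. The 7 measured genes of the S-adenosylmethionine cycle, which feeds Nnmt its methyl groups, had medians of -0.03 and -0.06. Among 13 measured ADP-ribosyltransferase and glycohydrolase genes, medians were -0.0085 and 0.0021. Parp1, the most active family member at DNA breaks, differed by 0.28 and 0.11, where the top Parp3 probe set differed by -2.40 and -2.34.

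Around Tipin, 13 measured fork protection genes had medians of -0.0036 and -0.03. Timeless, its binding partner, read 90.1 on chow and 181 on Western diet in B6 mice, against 98.3 and 182 in Ath29 mice. Timeless thus differed by 0.08 and 0.02 between strains and by 0.96 and 0.90 between diets, and Tipin by -1.54 and -1.48 between strains and by -0.08 and -0.02 between diets, so that neither gene reached 2-fold by diet. Around Trappc4, 12 measured TRAPP subunits had medians of -0.03 and -0.15, and their strain differences ran from -0.71 to 0.46 on chow and from -0.42 to 0.37 on Western diet.

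Around Tmod3, the 7 measured tropomodulin, leiomodin and tropomyosin genes had medians of -0.40 and -0.05. Tmod1 differed by -0.41 and -0.49. Tpm1, a tropomyosin gene of chromosome 9, read 1167 on chow and 862 on Western diet in B6 mice, against 456 and 757 in Ath29 mice, so its strain differences were -1.40 and -0.18. The 5 smooth muscle markers summed to 19228 in Ath29 chow and to 21123 to 22756 on the other arrays. Myh11, Tagln and Acta2 were lowest in Ath29 chow, Myh11 at 841 against 1322 to 2008, while Cnn1 and Smtn were lowest in B6 Western. The part of smooth muscle in the Tpm1 value was not tested.

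The 5 measured scramblase genes beside Plscr2 had medians of -0.31 and 0.04. The 5 measured genes of the FEZ and kinesin-1 list had medians of -0.34 and -0.09, and Fez2, the close relative of Fez1, differed by -0.25 and -0.11. The 5 measured adhesion genes of the family of Clmp had medians of -0.34 and -0.19, among them Esam of chromosome 9 at -0.34 and -0.15. The 3 measured tubulin polyglutamylase genes beside Nicn1 had medians of -0.47 and 0.14, with Ttll1, the catalytic subunit, at -0.53 and 0.47. Of the NXPE family, 0 of 3 listed relatives of Nxpe4 passed the filter. The Nxpe2 and Nxpe3 probe sets read at most 25.5.

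With the B6 Western array left out and both Ath29 arrays set against B6 chow, 11 of the 19 member probe sets differed 2-fold, the added one being that of Clmp, and 111 of all genes in place of 30. The members were chosen on these arrays and B6 chow then serves both diets, so nothing is read from the members' count. The B6 Western array, which had the highest heart muscle signal, is the one behind the Sln value of -6.13.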

How the data were processed

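Per the labels' protocols, total RNA (8 ug) was made into biotin-labelled cRNA for Affymetrix arrays. The source label names aorta, while the extract protocol names liver. The authors deposited 1 table of intensity values per probe set, read as linear from the values. How they were summarised, background-corrected and scaled was not given in the sources used here. Gene names came from the platform annotation, with symbols updated by gene identifier to RefSeq genes of GRCm38.p6, used for names, chromosome and gene order. Of 45101 probe sets, 34945 had 1 symbol (34741 of them matched), 932 several, 9160 none, and 64 were controls.

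Intensities were taken to log2, arrays shifted to 1 median (factors 0.990 to 1.02), and values under the 25th percentile (9.60) raised to it. Probe sets with a mean above the median (27.5) were kept. A gene was read from its highest probe set. Counting was tested on simulated data (Python 3.11.15, pandas 2.3.3). The number of arrays limits the precision.

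The members and lists were chosen with earlier results of these data known. Named genes were the members, 2 neighbours on each side, 3 genes on each side of 2-fold, 3 nearest patterns, and up to 6 genes per list by mean. Timeless, Fez2, Nxpe2, Nxpe3, Esam, Ttll1, Plscr1, Plscr4, Tmod2, Alb, Cyp2e1, Retn, Myh11, Apoe, C920006O11Rik, Ets1, Fam76b, Itga9 and Rbms3 were named or singled out after their values were seen. Alternatives were other scalings, floors, filters and folds, the mean of probe sets, and leaving out probe sets ending in _s_at, _x_at or _a_at.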

Additional observations from a re-analysis of the deposited data

Results flagged for a closer look

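In 2 member probe sets the strain difference went opposite ways on the 2 diets by more than 1 log2 unit. The difference between diets was not tested, since each group has 1 array. The Clmp probe set 1448250_at differed by -1.67 on chow and 0.17 on Western diet, a gap of 1.84, with B6 chow at 269.9 and the other arrays at 74.3 to 87.2. The Tmod3 probe set 1455708_at differed by -0.35 on chow and 0.71 on Western diet, a gap of 1.07, with B6 Western lowest at 28.2. Of all probe sets that passed the filter, 11.3% met this description.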

How the results depend on the processing

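The 21 differences of member probe sets that passed 2-fold did so under each of 5 other scalings or floors (105 of 105 values). These differences were picked for passing, and the members were chosen on most of them. The count shows only that scaling and floor moved them little. The choice of probe set mattered more. With the probe sets of each gene averaged, Tmod3 turned to -0.11 on chow and 0.17 on Western diet. Trappc4, Parp3 and Nicn1 fell under 2-fold on both diets, and Clmp on Western diet (-0.74). The other 5 members have 1 probe set each, so averaging could not change them. Without probe sets ending in _s_at, _x_at or _a_at, another probe set stands for Tmod3 and for Trappc4. Tmod3 then turned to -0.77 and -0.81 and Trappc4 to -0.25 and -0.34. Nnmt and Parp3 have only such probe sets and dropped out, and 6 member probe sets passed in place of 10. At 3-fold 4 passed. The count of all genes 2-fold on both diets was 30; it was 72 with no filter, 12 with a filter at the 75th percentile, 148 at 1.5-fold and 7 at 3-fold. The chromosome 9 count was 13; it was 7 with the stricter filter, 28 at 1.5-fold, 5 at 3-fold and 8 with probe sets averaged. Leaving out each array in turn, chosen after seeing the data, gave 9 to 11 member probe sets, 17 to 19 chromosome 9 genes and 61 to 111 genes in all (109 without B6 chow, 111 without B6 Western, 61 without Ath29 chow, 103 without Ath29 Western), because 1 array then serves both diets. The groups share 1 replicate number, which names an array and pairs nothing, so no replicate block was used. An additive fit of strain and diet over the 4 arrays, which pairs the strains within a diet, was not run.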

Other observations

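Outside the members, 4 chromosome 9 genes had a second probe set that differed 2-fold by strain on both diets while the top one did not. The integrin gene Itga9 read 77.7 and 50.9 in B6 mice against 431 and 516 in Ath29 mice on 1460285_at, and its top probe set differed by -0.45 and 0.03. The RNA-binding gene Rbms3 read 2006 and 1501 against 399.8 and 545 on 1452761_a_at, with -0.15 and 0.31 on the top probe set. The transcription factor gene Ets1 read 18.9 and 27.3 against 120 and 95.1 on 1422028_a_at, both B6 values lying below the filter of 27.5, with 0.18 and -0.23 on the top probe set. Fam76b differed by -1.15 and -1.06 on 1452268_at and by -0.28 and -0.36 on its top probe set. Of 7430 such second probe sets, 14 (0.188%) passed, 4 of them on chromosome 9. Itga9 and Rbms3 stood at places 593 and 588 in gene order, beyond the last member. Ets1 and Fam76b stood at places 107 and 27, before the first member.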
